A study of Homo sapiens with 20 samples.

Results

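HES1 and 7 other genes of the Notch pathway were followed in MM1.S cells exposed to dCBP-30: the receptors NOTCH1 and NOTCH2, the receptor protease ADAM10, the ligand JAG2, the DNA-binding factor RBPJ, and its coactivators MAML1 and MAML2. They were 8 of the 19617 genes counted. HES1 was chosen by its T>C read counts with dCBP-30 against DMSO, so its response to dCBP-30 is given below as a description with no test. The other 7 genes were chosen by their known place in the pathway, with earlier results of these data known. MM1.S is an established multiple myeloma cell line, labelled as wild type. Cells received 10 nM dCBP-30, a degrader of the acetyltransferases CBP and p300, or its vehicle DMSO, for 2, 6 or 24 h, with 3 libraries for each treatment and time point. All 18 of these libraries came from cells given 4-thiouridine (4sU) for the last 1 h. Another 2 libraries came from MM1.S cells that had no 4sU, and their labels give neither treatment nor time. No source used here says that the 3 libraries of a group came from separate cultures, so p-values measure the spread between these libraries, which may be technical.

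In the Notch pathway a ligand on one cell, such as a Jagged protein, binds a Notch receptor on its neighbour. ADAM10 then cuts the receptor outside the membrane, gamma-secretase cuts it within the membrane, and the freed intracellular domain moves to the nucleus. There it binds RBPJ on DNA together with a Mastermind protein (MAML), and Mastermind brings in CBP and p300. Without the intracellular domain, RBPJ is held with corepressors such as SPEN. HES1 is a classical target of this complex and encodes a basic helix-loop-helix repressor that also binds its own promoter, and its mRNA and protein are known to be short-lived. In the plasma cell lineage Notch signalling is best known from contacts of myeloma cells with each other and with bone marrow stroma.

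The promoter of HES1 carries letters of the kind that RBPJ is known to bind, and they are shown because the other results turn on this gene and this factor. The search covered 250 bases before and 50 after each RefSeq start (assembly GRCh38.p14) for GTGGGAA and GTGTGAA on both strands. The 30 bases of HES1 at chr3:194136063-194136092 on the plus strand hold one of each, facing each other, with 23 bases from the first base of one to the first of the other. The same facing pair at the same spacing was found in HES4, another gene of the same family, at chr1:1000145-1000174 on the minus strand. An RBPJ promoter holds GTGGGAA once on each strand, at chr4:26319619-26319648 and chr4:26319661-26319690, and the bases around each are given. Capitals mark the matched letters (TTCACAC is GTGTGAA and TTCCCAC is GTGGGAA on the opposite strand).
HES1: GTGGGAAagaaagtttgggaagtTTCACAC
HES4: GTGGGAAagaatgcggagccgggTTCACAC
RBPJ, first site: ggtttaggaaatTTCCCACggccgtgttgt
RBPJ, second site: tagtggaaggcgGTGGGAAggaggtgtagc

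GTGGGAA occurred in 6.25% of the 35097 promoters of this table, GTGTGAA in 3.0%, and a facing pair with at most 30 bases between first bases in 14 promoters, or 0.04%. Among the 53 listed Notch genes with a promoter entry (the list is described below), the facing pair was found in HES1 and HES4. HES4 is listed at 0 reads in all 20 libraries, so no response of it can be given. Of the 8 genes followed here, GTGGGAA was found in HES1 and RBPJ. HES1 also held 4 matches of CACNAG, the N box that HES proteins are known to bind, a motif found in 38.0% of all promoters; the match 58 bases before its start overlaps the GTGTGAA site. These matches describe letters only.

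The assay separates newly made from older RNA. Incorporated 4sU is read as C in place of T after alkylation with iodoacetamide, so reads with such conversions (T>C reads) come from RNA made in the labelling hour, and total reads hold old and new RNA together. Libraries held 12440700 to 18729086 reads on genes, of which 4.71% to 8.62% were T>C reads with 4sU, against 0.794% and 0.809% without it. Levels are given as RPM, reads per 1000000 of the library's total reads times its TMM factor, a scaling factor set so that most genes do not shift. Because RNA came from bulk culture and levels are relative, fewer cells and less RNA per cell cannot be told apart. All 8 plasma cell markers had 10 or more reads in every library. Of 4 T cell, 4 myeloid, 4 stromal and 3 epithelial markers, 1 did so: CD3E, with 27 to 286 reads, while CD3D was at 0. The dCBP-30 libraries at 24 h stood apart in labelling: they had 1.43 to 1.51 conversions per T>C read over all genes, against 2.46 to 2.51 under DMSO at 24 h and 2.12 to 2.27 in the other labelled libraries. The DMSO libraries at 24 h also stood apart, in the other direction. Of their reads 8.15% to 8.62% were T>C reads, against 5.99% to 6.59% under DMSO at 2 and 6 h. The part of these differences in the 24 h results was not tested.

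HES1 (ENSG00000114315, 3′ UTR at chr3:194138234-194138732, plus strand, hg38) had lost its labelled reads altogether in the dCBP-30 libraries at 2 and 6 h. Under DMSO the 3 libraries held 133, 135 and 194 T>C reads after 2 h. The counts were 217, 215 and 191 after 6 h, and 186, 208 and 195 after 24 h. With dCBP-30 the counts at 24 h were 10, 16 and 20. The groups therefore did not overlap at any time point, and labelled HES1 RNA was read again at 24 h, in each library, at a level below every DMSO library. In T>C RPM, DMSO stood at 11.3 ± 2.66, 14.1 ± 1.199 and 12.7 ± 1.11 at the 3 times, and dCBP-30 at 0.824 ± 0.263 at 24 h (SD, n = 3 each). Against a floor of 3 counts over the group, labelled HES1 was at least 162-fold lower with dCBP-30 at 2 h and at least 242-fold lower at 6 h. At 24 h it was 15.3-fold lower (95% counting interval 11.4 to 21.2), or 9.80-fold under scaling by T>C reads, which lies outside that interval. Such intervals and floors cover counting error only, and reads here carry no molecular identifiers.

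The pool of HES1 RNA went the same way. Under DMSO the total reads were 214, 238 and 247 after 2 h, 280, 292 and 249 after 6 h, and 202, 245 and 209 after 24 h. With dCBP-30 they were 4, 8 and 0 at 2 h, 0 in each library at 6 h, and 28, 22 and 40 at 24 h. HES1 RNA, old or new, was thus almost gone after 2 h of treatment, with 12 reads over 3 libraries and none of them a T>C read. Total HES1 reads were 61.3-fold lower with dCBP-30 at 2 h (34.9 to 119), at least 319-fold lower at 6 h and 8.73-fold lower at 24 h (6.999 to 11.01). The libraries without 4sU held 404 and 295 HES1 reads, with 1 and 3 T>C reads. Their total levels of 25.8 and 21.9 RPM lay above every DMSO library, so levels with and without 4sU differ for this gene, and the treatment and time behind them are not labelled.

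**Figure D1:**
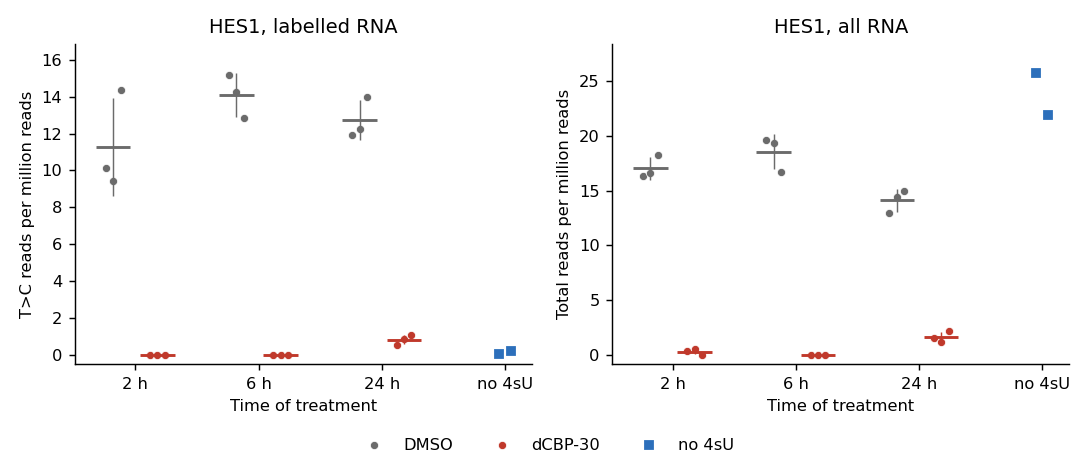
HES1 in every library, as T>C reads (left) and total reads (right) in RPM, by time of treatment; points are libraries, horizontal bars means and vertical lines SD (n = 3), and squares the 2 libraries without 4sU. The dCBP-30 libraries sit at or near 0 at 2 and 6 h and at a mean of 0.824 T>C RPM at 24 h, below every DMSO library.

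Most HES1 reads under DMSO were labelled. The share of T>C reads was 66.1% at 2 h (95% Clopper-Pearson interval of the summed counts 62.5% to 69.6%), 75.9% at 6 h (72.8% to 78.8%) and 89.8% at 24 h (87.2% to 92.0%). Over the 9 DMSO libraries it was 76.9%, or 1674 of 2176 reads, against 0.572% (0.156% to 1.46%) without 4sU. The T>C share over all genes under DMSO was also highest at 24 h, at 8.15% to 8.62%. The same share over the 9 DMSO libraries was 35.8% in MAML2, 32.5% in MAML1, 18.3% in NOTCH1, 15.4% in RBPJ, 10.9% in NOTCH2 and 8.26% in ADAM10. A read with more T bases can show a conversion more easily, but the share of covered T bases that were converted was also higher in HES1 in each DMSO group (6.44%, 6.84% and 10.2% at 2, 6 and 24 h) than in any of the other 7 genes. The HES1 reads that came back with dCBP-30 at 24 h were T>C reads in 51.1% (40.3% to 61.8%). The course of labelled HES1 under DMSO is also given with no test, since its DMSO counts were part of its choice. Its T>C reads differed from those at 2 h by a log2 fold change of 0.32 at 6 h and 0.17 at 24 h. The medians over all genes in these comparisons were 0.05 and 0.49.

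Across the other 7 genes, tests used edgeR's quasi-likelihood model over all genes. A gene was called at an adjusted p (Benjamini-Hochberg over all genes tested) under 0.05 with more than a 2-fold change. Of the 6 of these 7 genes that passed the filter on low T>C counts, 1, 2 and 4 were called lower at 2, 6 and 24 h and none higher. Under scaling by T>C reads the counts at 6 and 24 h became 1 and 1, and without TMM factors (below) 1 and 2. Over all 10086 genes tested, 7.14%, 17.1% and 31.2% were called lower and 1.66%, 2.36% and 2.17% higher, so a lower call at 24 h was common. Under scaling by T>C reads 11.8% and 15.0% of 10054 genes were called lower at 6 and 24 h. Without TMM factors 6.10%, 11.6% and 17.4% of 10115 genes were called lower at 2, 6 and 24 h and 2.40%, 5.19% and 5.95% higher. In total reads all 7 were tested, and 0, 2 and 2 were called lower and 0, 0 and 1 higher. There 1.25%, 8.67% and 16.1% of 12272 genes were called lower and 0.464%, 7.47% and 15.0% higher. The median log2 fold change of T>C reads over all genes was 0.05, −0.27 and −0.69 at the 3 times. Scaling by the T>C reads themselves brings these medians to 0.05, 0.04 and −0.04, so T>C changes at 6 and 24 h are read against these medians below. The TMM factors themselves were 1.31 to 1.33 for dCBP-30 at 24 h and 0.882 to 0.944 for DMSO. Scaling by total reads alone, without them, moves the median of total reads over all genes from 0.02 to 0.35 at 6 h and from 0.05 to 0.58 at 24 h, and results that change with it are named.

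NOTCH1 (3′ UTR of 8542 bases within chr9:136494433-136519543, minus strand) showed no called change until 24 h, when both its labelled and its total reads were lower. NOTCH1 is the receptor whose freed intracellular domain is a known oncogene in T cell leukaemia. Labelled reads numbered 25, 28 and 17 with dCBP-30 and 30, 30 and 44 with DMSO at 2 h, and 18, 24 and 27 against 22, 9 and 22 at 6 h. In RPM both pairs of groups overlapped, and the log2 fold changes were −0.61 (adjusted p = 0.594) and 0.15 (adjusted p = 0.891). At 24 h the counts were 9, 32 and 7 with dCBP-30 and 40, 60 and 83 with DMSO, which did not overlap, although 1 dCBP-30 library lay well above the other 2. The log2 fold change was −2.20 ± 0.57 (SE, adjusted p = 0.00126), a decrease beyond the median of all genes. Total NOTCH1 reads were 106, 137 and 89 against 194, 204 and 265 at 24 h, with a log2 fold change of −1.28 ± 0.26 (adjusted p = 1.8e-04). Without TMM factors it was −0.75 (adjusted p = 0.016), within 2-fold. At 2 and 6 h they overlapped, with log2 fold changes of −0.09 and −0.03. The total response at 24 h was stronger than at 2 h by a log2 difference of −1.19 (adjusted p = 0.0103), which without TMM factors was −0.77 and not called (adjusted p = 0.0906), and than at 6 h by −1.24 (adjusted p = 0.0102).

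NOTCH2 (chr1:119911553-119915305, minus strand), a receptor known for its role in marginal zone B cells, was lower at 6 h, and at 24 h its total reads overlapped DMSO again. Its total reads at 6 h were 151, 140 and 95 with dCBP-30 and 250, 255 and 339 with DMSO. No library overlapped, and the log2 fold change was −1.35 ± 0.19 (adjusted p = 2.9e-06). At 2 h the totals were 192, 342 and 295 against 259, 294 and 274, and at 24 h 463, 375 and 468 against 341, 350 and 262. In RPM both pairs of groups overlapped, with log2 fold changes of −0.08 (adjusted p = 0.869) and 0.20 (adjusted p = 0.354). The difference of responses was itself called, at −1.27 for 6 against 2 h (adjusted p = 0.0011) and 1.55 for 24 against 6 h (adjusted p = 4.5e-05). Labelled NOTCH2 reads were few: 10, 1 and 15 with dCBP-30 and 32, 20 and 21 with DMSO at 6 h, a log2 fold change of −1.67 that missed the threshold (adjusted p = 0.053). Without the third dCBP-30 library at 6 h it was −2.35 (adjusted p = 0.021). With DESeq2 and size factors from total reads it was −1.67 and called lower (adjusted p = 0.035).

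ADAM10 (chr15:58588809-58597546, minus strand), which makes the first cut of a ligand-bound receptor, was the one gene of the 7 whose labelled reads were called lower at all 3 times. At 2 h, T>C reads numbered 49, 32 and 68 with dCBP-30 and 130, 144 and 134 with DMSO. At 6 h they were 72, 83 and 59 against 140, 150 and 77, and at 24 h 79, 99 and 64 against 193, 214 and 201. In RPM the groups did not overlap at any time. The log2 fold changes were −1.51 ± 0.30 at 2 h (adjusted p = 1.5e-04), −1.004 ± 0.30 at 6 h (adjusted p = 0.0080) and −1.59 ± 0.29 at 24 h (adjusted p = 1.0e-05). The 6 h call lay at the 2-fold limit: it was lost without the third dCBP-30 library (−0.91), without the first or second DMSO library (−0.87 and −0.85), and under scaling by T>C reads (−0.69, adjusted p = 0.095). Under that scaling the 24 h value was −0.93 (adjusted p = 0.013), within 2-fold, while 2 h stayed called.

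Total ADAM10 reads followed more slowly. They were 1200, 1511 and 2069 with dCBP-30 and 1555, 1791 and 1808 with DMSO at 2 h, with overlapping groups and a log2 fold change of −0.19 (adjusted p = 0.457). By 24 h they were 1157, 1207 and 1126 against 2224, 2269 and 1817, a log2 fold change of −1.11 ± 0.12 (adjusted p = 3.0e-08), with −0.90 at 6 h (adjusted p = 2.2e-06) lying within 2-fold. Without TMM factors the 24 h value was −0.59 (adjusted p = 2.2e-04), within 2-fold. The 3′ UTR overlaps a gene on the opposite strand, ENSG00000259250. A second ADAM10 transcript ending elsewhere, at chr15:58747345-58748911, had T>C reads of 6, 4 and 8 with dCBP-30 and 16, 34 and 45 with DMSO at 2 h, so the lower labelled level at 2 h was read at both ends. At 6 h its T>C reads were 12, 8 and 14 against 33, 27 and 30, without overlap. At 24 h they were 10, 13 and 29 against 31, 40 and 19, which overlapped.

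**Figure D2:**
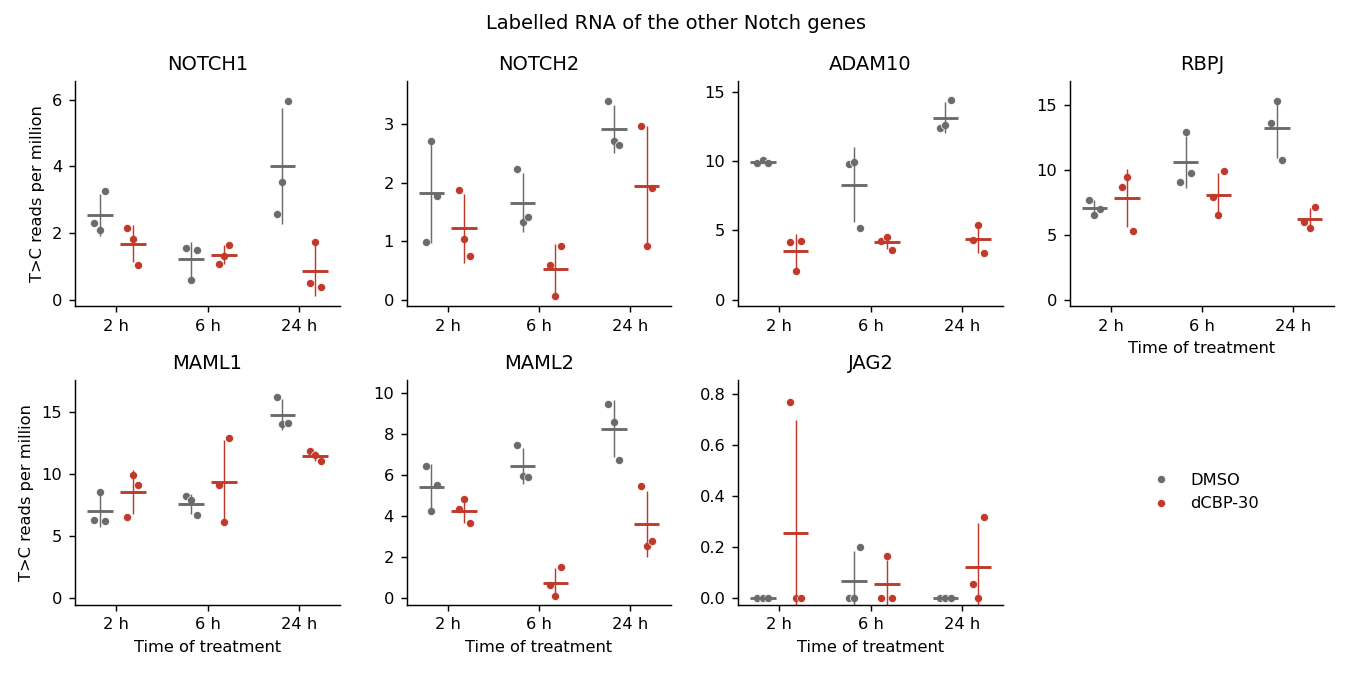
T>C reads, in RPM, of the other 7 Notch genes in each labelled library, by time of treatment; points are libraries, horizontal bars means and vertical lines SD (n = 3 each), and each panel has its own axis from 0. ADAM10 with dCBP-30 lies below DMSO at every time, MAML2 drops at 6 h to a mean of 0.759 T>C RPM, and NOTCH1 and RBPJ separate at 24 h.

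JAG2 (chr14:105140995-105142694, minus strand), a Jagged ligand that myeloma cells are known to express, was near the limit of detection. It had 159 reads over all 20 libraries, at most 22 in one, and did not pass the filter for T>C reads. Its T>C reads were 9, 0 and 0 with dCBP-30 at 2 h, 0, 3 and 0 after 6 h, and 1, 0 and 6 after 24 h, against 3 in 1 DMSO library at 6 h and 0 in the other 8. A difference in labelled JAG2 was not detectable at this depth. Total reads at 24 h were 14, 19 and 10 with dCBP-30 and 0, 0 and 3 with DMSO. These groups did not overlap, and the log2 fold change of 3.39 ± 1.25 was called higher (adjusted p = 0.023). The call was lost without the second dCBP-30 library (adjusted p = 0.061) or the first or second DMSO library (adjusted p = 0.089 and 0.095). At 2 and 6 h the totals were 9, 15 and 7 against 0, 6 and 2, and 9, 14 and 22 against 4, 2 and 17, and neither was called.

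RBPJ (chr4:26431008-26435131, plus strand), the DNA-binding subunit, had no called change before 24 h. Labelled reads numbered 102, 145 and 86 with dCBP-30 and 101, 94 and 95 with DMSO at 2 h, and 133, 119 and 163 against 130, 195 and 146 at 6 h. Both pairs overlapped, with log2 fold changes of 0.14 (95% interval −0.40 to 0.68) and −0.39 (−0.92 to 0.13). At 24 h they were 111, 101 and 135 against 212, 260 and 150, with no overlap in RPM and a log2 fold change of −1.09 ± 0.26 (adjusted p = 5.7e-04). Read against the median of all genes at 24 h the decrease was smaller: under scaling by T>C reads it was −0.45 (adjusted p = 0.19). The call was also lost without the second DMSO library at 24 h (−0.97). Total RBPJ reads at 24 h were 990, 934 and 871 against 1109, 1302 and 912, lower in RPM in every dCBP-30 library, with a log2 fold change of −0.50 ± 0.13 (adjusted p = 0.0015) that lay within 2-fold and was 0.02 without TMM factors. A sparser RBPJ transcript, ending at chr4:26430432, had T>C reads of 1, 6 and 6 against 18, 10 and 16 at 6 h, without overlap. At 24 h they were 13, 36 and 18 against 2, 35 and 23, which overlapped. Without 4sU this transcript had 2 and 17 T>C reads.

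MAML1 (chr5:179774878-179777283, plus strand), a coactivator that bridges the RBPJ complex to CBP and p300, was higher in total reads at all 3 times, each within 2-fold. The totals were 466, 810 and 663 with dCBP-30 and 395, 403 and 397 with DMSO at 2 h, 664, 639 and 879 against 412, 453 and 455 at 6 h, and 900, 983 and 1045 against 515, 509 and 493 at 24 h. The groups did not overlap at any time. The log2 fold changes were 0.61 ± 0.15 (adjusted p = 0.0168), 0.51 ± 0.15 (adjusted p = 0.0082) and 0.68 ± 0.15 (adjusted p = 3.7e-04), and the last was 1.203 and called higher without TMM factors. Its labelled reads were not called at any time: 77, 152 and 147 against 83, 122 and 84 at 2 h (log2 fold change 0.29), 154, 112 and 212 against 117, 119 and 100 at 6 h (0.30), and 219, 212 and 208 against 253, 238 and 196 at 24 h (−0.36). The 24 h value turned to 0.29 under scaling by T>C reads.

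MAML2 (chr11:95976598-95978947, minus strand), the second Mastermind coactivator measured, had a dip centred on 6 h in both labelled and total reads. At 6 h, T>C reads numbered 11, 2 and 25 with dCBP-30 and 107, 90 and 88 with DMSO. No library overlapped, and the log2 fold change was −3.10 ± 0.44 (adjusted p = 4.35e-08). At 2 h the counts were 51, 74 and 59 against 85, 61 and 75, which overlapped (−0.34, adjusted p = 0.680). At 24 h they were 101, 47 and 53 against 148, 146 and 94, a log2 fold change of −1.197 ± 0.38 (adjusted p = 0.0080). The 24 h call was lost without the second dCBP-30 library (−1.001, adjusted p = 0.055) and under scaling by T>C reads (−0.55, adjusted p = 0.28). It was also lost in the fit with the transcripts of every gene summed (−1.22, adjusted p = 0.081). MAML2 had no other transcript listed, so its own counts were the same in that fit.

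Total MAML2 reads at 6 h were 38, 43 and 80 with dCBP-30 and 311, 298 and 268 with DMSO, a log2 fold change of −2.65 ± 0.23 (adjusted p = 8.7e-10). At 2 h they were 187, 259 and 239 against 246, 248 and 219, and at 24 h 305, 331 and 264 against 304, 324 and 281. The log2 fold changes there were −0.13 (adjusted p = 0.811) and −0.28 (adjusted p = 0.252), and neither was called. In RPM each dCBP-30 library at 24 h still lay below DMSO, with means of 16.2 and 19.6, but without TMM factors the change turned to 0.25. The response of total reads at 6 h differed from that at 2 h by −2.52 (adjusted p = 1.1e-06) and the response at 24 h from that at 6 h by 2.38 (adjusted p = 1.1e-06).

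**Figure D3:**
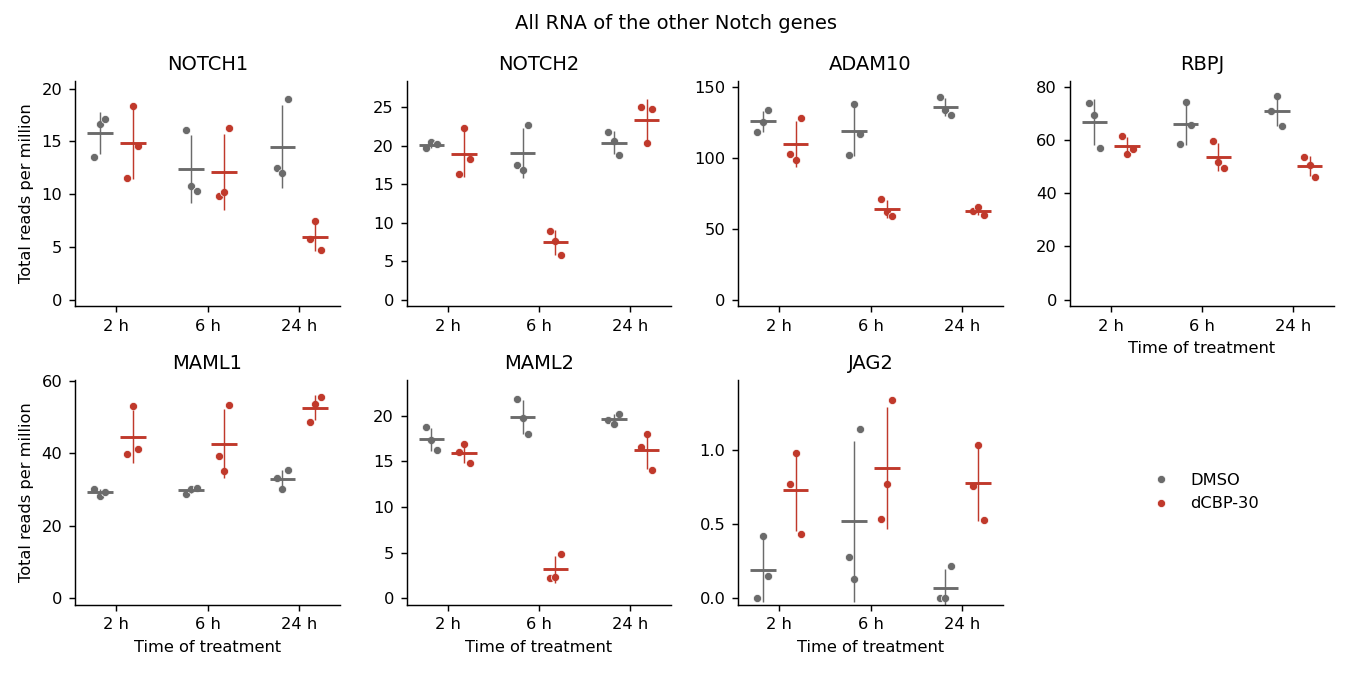
Total reads, in RPM, of the other 7 Notch genes in each labelled library, by time of treatment; points are libraries, horizontal bars means and vertical lines SD (n = 3 each), and each panel has its own axis from 0. NOTCH2 and MAML2 are lower with dCBP-30 at 6 h and near DMSO at 24 h, NOTCH1 and ADAM10 are lower at 24 h, and MAML1 is higher throughout.

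The calls thus fell at different times in different genes, and the differences of labelled responses between times were tested too. For T>C reads the change from 2 to 6 h was called lower for MAML2 (−2.75, adjusted p = 5.8e-04), the change from 2 to 24 h lower for RBPJ (−1.23, adjusted p = 0.0105), and the change from 6 to 24 h lower for NOTCH1 (−2.36, adjusted p = 0.0427) and higher for MAML2 (1.90, adjusted p = 0.0178). Under scaling by T>C reads the calls of RBPJ (−0.59) and NOTCH1 (−1.99) were lost. Over all genes these differences were called lower in 6.63%, 21.6% and 8.50% of genes and higher in 0.615%, 2.58% and 2.56%, in the order 6 against 2 h, 24 against 2 h and 24 against 6 h. The corresponding shares for total reads were 5.83%, 13.9% and 9.70% lower and 2.75%, 11.1% and 8.45% higher. These differences share libraries with each other. Under DMSO alone, labelled MAML1 rose from 2 to 24 h by a log2 fold change of 1.07 ± 0.26 (adjusted p = 0.0096), where 0.00991% of genes were called lower and 2.53% higher. The median of all genes rose by 0.49 in that comparison, and under scaling by T>C reads MAML1 stood at 0.62 and was not called. HES1 aside, no other of the 8 genes was called in T>C reads between DMSO time points, and none was in total reads.

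Labelling itself differed at 24 h for these genes as for the library as a whole. Leaving out JAG2, 7 of 7 genes had fewer conversions per T>C read with dCBP-30 than with DMSO at 24 h, against 4 of 6 at 2 h and 2 of 6 at 6 h, when HES1 had no T>C reads to compare. At 24 h the values with dCBP-30 and DMSO were 2.37 and 3.65 in HES1, 2.71 and 3.16 in NOTCH1, and 1.55 and 2.90 in ADAM10. The part of this in the lower T>C reads at 24 h was not tested.

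**Figure D4:**
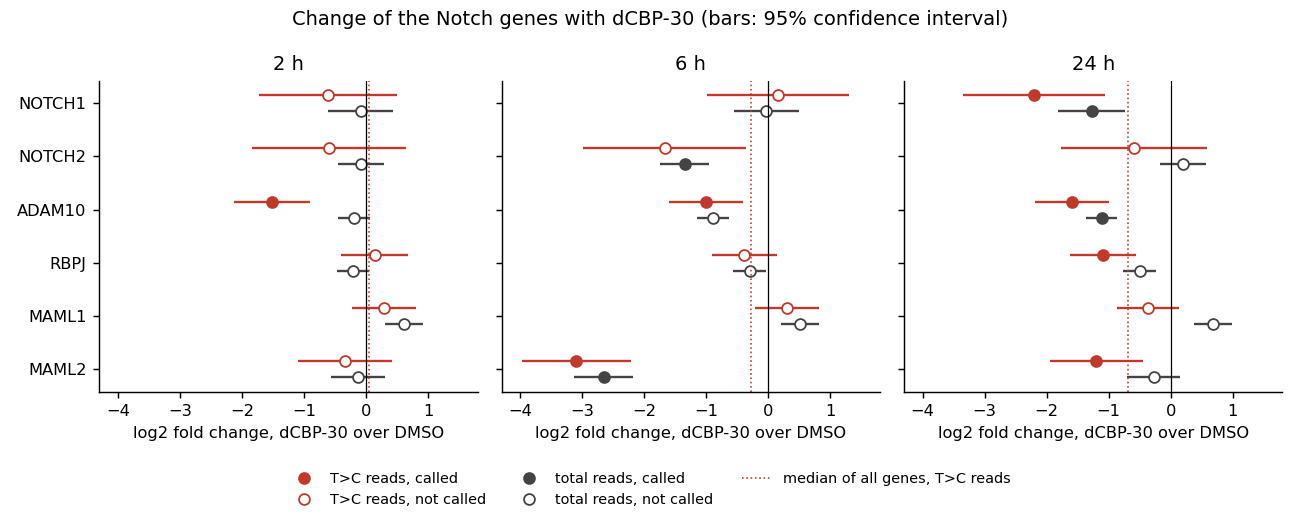
Log2 fold change, dCBP-30 over DMSO, of T>C and total reads of 6 Notch genes at 2, 6 and 24 h, with 95% confidence intervals; filled points were called, and the dotted line is the median T>C change of all genes (0.05, −0.27 and −0.69). MAML2 at 6 h, at −3.10 in T>C and −2.65 in total reads, lies farthest from 0.

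The other genes of the pathway were taken from a list of 63 genes in 8 roles. Without HES1, 47 of them were tested in T>C reads and 51 in total reads. In T>C reads 5, 10 and 16 of 47 were called lower at 2, 6 and 24 h and 0, 0 and 2 higher, beside 7.14%, 17.1% and 31.2% of all genes lower. The medians of the list were −0.22, −0.51 and −0.45, beside 0.05, −0.27 and −0.69 over all genes, so the list's median at 24 h stood above that of all genes. Under scaling by T>C reads, 5, 8 and 7 were called lower, each also lower under the main scaling, and 0, 1 and 5 higher. Of all genes under that scaling, 7.07%, 11.8% and 15.0% were called lower and 1.71%, 5.15% and 7.55% higher. In total reads 0, 9 and 10 of 51 were lower and 1, 2 and 11 higher, beside 1.25%, 8.67% and 16.1% of all genes lower and 0.464%, 7.47% and 15.0% higher. Without TMM factors 7 and 17 listed genes were called higher in total reads at 6 and 24 h, beside 14.3% and 30% of all 12303 genes tested so (0.748% at 2 h), while 1.03%, 5.94% and 8.62% of all genes were lower at the 3 times. Of the genes not tested in total reads, 11 in number, none had over 18 reads in a library, and NOTCH4, DLL1, DTX1, HES4 and HES5 were listed at 0 in every library. NOTCH1 and NOTCH2 were the receptors with reads enough to test.

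HES1 aside, which has no test, 3 of the 47 listed genes tested were called lower in labelled RNA at all 3 times: ADAM10, TLE3 and HES6. The share of all genes called so was not counted, and it cannot exceed the 7.14% called lower at 2 h. TLE3 is a Groucho-family corepressor that HES proteins are known to recruit. Its T>C reads were 65, 160 and 92 with dCBP-30 and 460, 617 and 553 with DMSO at 2 h, and 28, 27 and 55 against 567, 573 and 655 at 6 h. No library overlapped, and the log2 fold changes were −2.45 ± 0.24, −4.23 ± 0.27 and −3.07 ± 0.25 at 2, 6 and 24 h (adjusted p = 9.4e-12, 7.0e-19 and 4.2e-15). Its total reads at 6 h, 247, 282 and 285 against 4084, 3944 and 3705, were lower by a log2 fold change of −4.07 ± 0.16 (adjusted p = 5.1e-16).

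HES6, an atypical member of the HES family known to oppose HES1, showed its labelled RNA lower before its pool. Its T>C reads at 2 h were 27, 70 and 49 with dCBP-30 and 169, 215 and 176 with DMSO, a log2 fold change of −2.03 ± 0.31 (adjusted p = 7.0e-07), while the totals, 2626, 3551 and 3246 against 2856, 3410 and 3215, overlapped (−0.08). With dCBP-30 at 6 and 24 h its T>C levels of 1.31 and 0.809 RPM lay below the 1.51 RPM read without 4sU. Its totals there were also lower, at 79.5 and 11.5 RPM against 227 RPM without 4sU. As a share of its reads, T>C reads were 1.66% at 6 h and 7.05% at 24 h, both above the 0.672% without 4sU. Under DMSO the share was 6.01% and 6.51% at these times. At 24 h the totals were 221, 241 and 176 against 2810, 2797 and 1970, a log2 fold change of −3.82 ± 0.14 (adjusted p = 3.2e-17). Its mean total level with dCBP-30 was thus lowest at 24 h, that of HES1 at 6 h.

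The other targets in the list are named here after their values were seen. Of the 9 targets besides HES1, 5 were tested in T>C reads. HEY1 had 0, 0 and 0 T>C reads with dCBP-30 at 24 h and 15, 40 and 16 with DMSO (called lower, adjusted p = 1.1e-04), but 6, 20 and 8 against 20, 32 and 6 at 6 h, which overlapped. HEY2 had 1, 4 and 20 against 28, 35 and 26 at 24 h (called lower, adjusted p = 0.0315; lost under scaling by T>C reads). HEYL went the other way in total reads at 24 h, with 333, 466 and 451 against 183, 156 and 163, a log2 fold change of 1.04 ± 0.26 (adjusted p = 0.0012). HES7 was also called higher in total reads at 24 h, with 6, 46 and 17 against 0, 3 and 1. NRARP was not called at any time. Its T>C reads were 8, 11 and 16 with dCBP-30 and 4, 1 and 10 with DMSO at 2 h, which overlapped in RPM. They were 0, 7 and 5 against 0, 16 and 0 at 6 h, and 0, 0 and 0 against 4, 2 and 0 at 24 h. HES2 had at most 10 reads in a library. In total reads at 24 h the called targets therefore lay on both sides of DMSO. In T>C reads no target was called higher under the main scaling. HEYL was called higher at 24 h under scaling by T>C reads.

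The ligand JAG1 was lower at 2 and 6 h, and its groups overlapped at 24 h. Its T>C reads were 0, 10 and 20 with dCBP-30 and 69, 70 and 14 with DMSO at 2 h (log2 fold change −2.49 ± 0.62, adjusted p = 0.0030), 6, 2 and 3 against 35, 65 and 49 at 6 h (−3.92 ± 0.70, adjusted p = 8.1e-06), and 33, 59 and 38 against 37, 30 and 48 at 24 h (−0.11, adjusted p = 0.905). The 2 h groups overlapped in counts, and the 2 h call was lost with transcripts summed. Total JAG1 at 6 h was lower by a log2 fold change of −1.89 ± 0.31 (adjusted p = 2.6e-05). NOTCH2 and MAML2 were likewise called lower at 6 h and not at 24 h in total reads.

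Genes that prepare the receptor split by direction. MFNG, a Fringe enzyme that adds sugar to the receptor, fell in labelled RNA at 6 h (−1.72 ± 0.30, adjusted p = 7.1e-06) and 24 h (−2.01 ± 0.30, adjusted p = 1.1e-07). Its T>C level with dCBP-30 at those times, 2.65 and 3.12 RPM, was no higher than the 3.29 RPM read without 4sU. Its totals were also lower, at 194 and 80.3 RPM against 320 RPM without 4sU. As a share of its reads, T>C reads were 1.36% at 6 h and 3.89% at 24 h, against 1.03% without 4sU. Under DMSO the share was 2.94% and 4.80%. POFUT1, which adds the fucose that Fringe enzymes extend, was lower at 24 h (−2.09 ± 0.39, adjusted p = 9.7e-06), and POGLUT1, which adds glucose, at 6 h (−2.23 ± 0.56, adjusted p = 0.0016; lost with transcripts summed). The span from the first to the last 3′ UTR base of POFUT1 (chr20:32215382-32238591) overlaps MIR1825, and overlap of the counted bases themselves was not tested. FURIN, the protease that matures the receptor, rose at 24 h in labelled RNA (1.22 ± 0.37, adjusted p = 0.0063) and in total reads (1.11 ± 0.15, adjusted p = 6.6e-07). Of the 7 tested proteases, ADAM10 was the one called in T>C reads at any time; APH1A, a gamma-secretase subunit, had log2 fold changes of −0.48, −0.51 and −0.20, with 19.9 T>C RPM without 4sU against 41.3, 44.2 and 51.1 under DMSO.

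MIB1, a ubiquitin ligase that acts on ligands, was lower in labelled RNA at 2 h (−1.43 ± 0.25, adjusted p = 9.3e-06) and not called at 6 and 24 h (−0.65 and −0.70). FBXW7, which targets the freed intracellular domain for degradation, was not called (−0.50, −0.62 and −0.86). Among corepressors, CTBP1 was lower at 6 h (−1.17 ± 0.25, adjusted p = 1.7e-04) and SPEN at 24 h (−1.48 ± 0.19, adjusted p = 1.3e-09), and both calls were lost under scaling by T>C reads, as was that of the coactivator SNW1 at 24 h (−1.42 ± 0.38, adjusted p = 0.0017). The spans from the first to the last 3′ UTR base of CTBP1, SPEN and SNW1 each overlap a gene on the opposite strand. For SPEN (chr1:15873141-15940456) and SNW1 (chr14:77717791-77754968) these spans are long, and overlap of the counted bases themselves was not tested.

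The mRNAs of the proteins that dCBP-30 targets were called higher in total reads at 24 h and not before. In T>C reads neither was called at any time under the main scaling. EP300 was called higher in T>C reads at 24 h under scaling by T>C reads. EP300, which encodes p300, had 9021, 10812 and 11438 total reads with dCBP-30 at 24 h and 3141, 2176 and 1986 with DMSO, a log2 fold change of 1.83 ± 0.19 (adjusted p = 1.8e-08) after 0.49 at 2 h and 0.71 at 6 h. Its labelled reads at 24 h, 1386, 1341 and 1920 against 837, 594 and 579, did not overlap, and the change of 0.94 ± 0.20 lay within 2-fold (adjusted p = 1.1e-04). CREBBP, which encodes CBP and is named after its values were seen, was called higher in total reads at 24 h (1.23 ± 0.21, adjusted p = 1.7e-05). The proteins were not measured in these libraries.

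**Figure D5:**
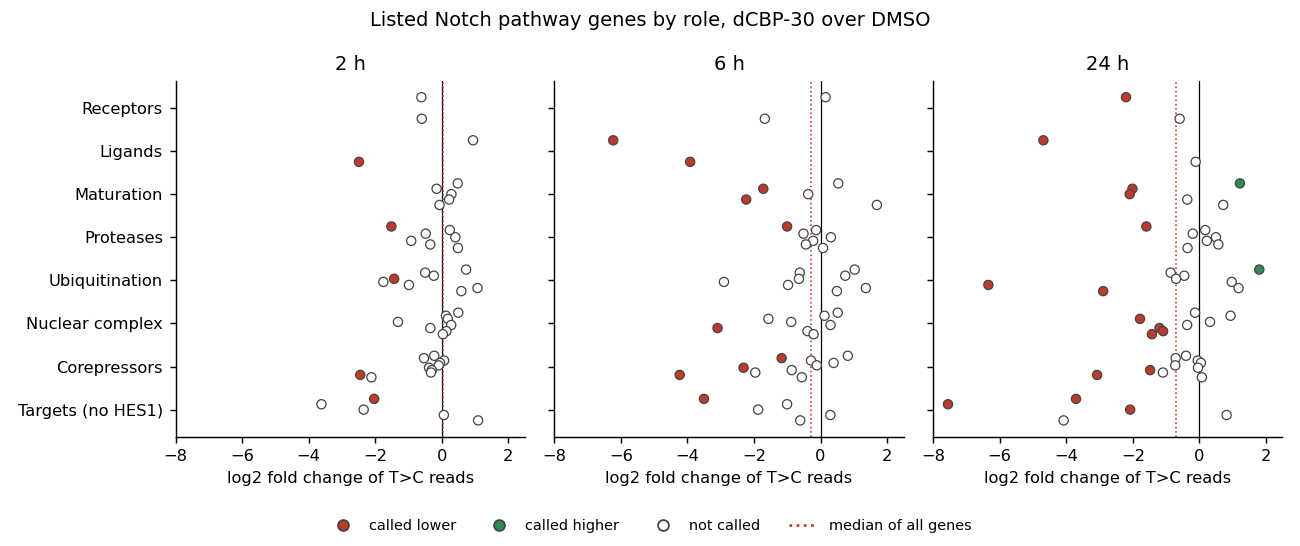
Log2 fold change of T>C reads, dCBP-30 over DMSO, of each listed Notch pathway gene tested, by role and time point, with HES1 left out; red points were called lower, green higher, and the dotted line is the median of all genes (0.05, −0.27 and −0.69). Calls are spread over the roles, with 5, 10 and 16 of 47 genes lower at 2, 6 and 24 h, beside 7.14%, 17.1% and 31.2% of all genes.

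The genes whose labelled reads were most like those of HES1 over the 18 labelled libraries were FOXO3, MAF, IRF2BPL, TNFAIP3 and BCL2L1. The measure was Pearson's r of log2(T>C RPM + 0.1) among 7431 genes averaging 20 or more T>C reads in the DMSO libraries. Their r was 0.989, 0.986, 0.983, 0.982 and 0.982, and 245 genes had r over 0.9. Among the Notch genes r was 0.853 for ADAM10, 0.664 for MAML2, 0.592 for NOTCH2, 0.427 for RBPJ, 0.342 for NOTCH1 and 0.0448 for MAML1. The libraries share treatment and time, so these values describe patterns and carry no p. MAF, a transcription factor known as an oncogene in myeloma, had 5.80 ± 1.98 T>C RPM with dCBP-30 and 135 ± 5.83 with DMSO at 2 h, and 17.6 ± 4.70 against 213 ± 13.8 at 24 h (SD, n = 3 each). As with HES1, its mean level with dCBP-30 was higher at 24 h than at 2 h and below DMSO. MAF was picked for its likeness to HES1 in these libraries, so a shared course follows from that choice.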

How the data were processed

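MM1.S libraries with 4sU (18) and without (2) were made with the QuantSeq 3′ kit and sequenced single-end. The authors trimmed reads with Trim Galore, mapped and counted them with Slamdunk at default settings on hg38 3′ UTRs, removed multimapping and low-quality reads, and collapsed the result per transcript. They deposited raw counts, per library and transcript, of all reads, of T>C reads, of converted T bases and of T bases covered, with no normalization and no pooling, and beside them the fraction of covered T bases that were converted, which Slamdunk computes from the last 2 counts. The study added a Drosophila spike-in, not analysed here.

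Of 97466 transcripts listed, 89088 (91.4%) matched GENCODE 44 by identifier, and the rest held 0.0789% to 0.199% of the reads of a library. Each gene took its transcript with most reads over the 20 libraries, since transcripts of a gene can list the same reads. Members and lists were chosen with earlier results of these data known. T>C counts of the 18 labelled libraries were fitted with edgeR 4.0.16 (R 4.3.3, quasi-likelihood, robust, one mean per group), with library size set to total reads times the TMM factor and filterByExpr at a minimum count of 10. Total reads were fitted the same way. Differences between times were contrasts in these fits. A call needed an adjusted p below 0.05 and more than a 2-fold change. DESeq2 1.42.0 was an alternative, beside other scalings, no filter, each time fitted alone, a replicate block, summed transcripts, background subtraction and leaving out each library. Tests were first tried on simulated data.

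No library was a copy of another of its group (chi-square per degree of freedom 8.54 to 50.1 over 19 pairs). Besides the 8 genes, the text names listed genes called in T>C reads (the 16 with most T>C RPM under DMSO), the gene with most T>C RPM of each role, and the 5 genes most like HES1. Promoter sequences are RefSeq's (GRCh38.p14). The values of 1 listed gene are not reported here, though it is included in the counts.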

Additional observations from a re-analysis of the deposited data

Results flagged for a closer look

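The response of several genes to dCBP-30 differed between time points by edgeR's test of the difference itself, given here as a log2 difference of responses. In total reads, the NOTCH1 response was lower at 24 h than at 2 h by −1.19 (adjusted p = 0.0103; −0.77 and not called without TMM factors) and than at 6 h by −1.24 (adjusted p = 0.0102). The NOTCH2 response was lower at 6 h than at 2 h by −1.27 (adjusted p = 0.0011) and higher at 24 h than at 6 h by 1.55 (adjusted p = 4.5e-05). The MAML2 response was lower at 6 h than at 2 h by −2.52 (adjusted p = 1.1e-06) and higher at 24 h than at 6 h by 2.38 (adjusted p = 1.1e-06). In T>C reads, MAML2 did the same, by −2.75 (adjusted p = 5.8e-04) and 1.90 (adjusted p = 0.0178). The labelled RBPJ response was lower at 24 h than at 2 h by −1.23 (adjusted p = 0.0105), and that of NOTCH1 at 24 h than at 6 h by −2.36 (adjusted p = 0.0427). The call of RBPJ was lost under scaling by T>C reads (−0.59, adjusted p = 0.30) and without TMM factors (−0.81, adjusted p = 0.13), and that of NOTCH1 under both (−1.99 and −2.14, adjusted p = 0.119 and 0.085) and with the replicate block (−2.32, adjusted p = 0.058). The differences that share a time point share its libraries.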

How the results depend on the processing

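Alternatives gave 1151 values for 109 results. The HES1 response was not fitted and was recomputed only as a fold, which at 6 h, and in T>C reads at 2 h, is a lower bound against the floor. Depth limits JAG2, which was too sparse for a test of T>C reads, and the labelled reads of NOTCH1 and NOTCH2. Where a value changed, the cause was not tested.

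Scaling by T>C reads ended the calls of ADAM10 at 6 h (−0.69) and 24 h (−0.93), RBPJ (−0.45) and MAML2 (−0.55) at 24 h, the differences of RBPJ (−0.59) and NOTCH1 (−1.99), and MAML1's rise under DMSO (0.62). It turned NOTCH2 (0.0445) and MAML1 (0.29) at 24 h. Genes called became 1 lower at 6 h and 1 lower at 24 h among the 7 genes, and in the list 1 higher at 6 h, with 7 lower and 5 higher by 24 h, 0 for the members' lower differences of 24 against 2 and 6 h, and 0 for their rise under DMSO. HES1 became at least 195-fold lower at 6 h and 9.80-fold lower at 24 h.

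Total reads without TMM gave, in T>C reads, ADAM10 −0.69 at 6 h, RBPJ −0.57, MAML2 −0.68 and MAML1 0.16 at 24 h, differences of −0.81 (RBPJ) and −2.14 (NOTCH1), 1 and 2 members lower at 6 and 24 h, 0 for both member differences, in the list 1 higher at 6 h, with 10 lower and 5 higher by 24 h, and HES1 at least 194-fold lower at 6 h. In total reads it turned NOTCH1 (0.0201) and NOTCH2 (0.0230) at 2 h, NOTCH1 (0.28) and RBPJ (0.0139) at 6 h, and RBPJ (0.0200) and MAML2 (0.25) at 24 h. It ended the 24 h calls of NOTCH1 (−0.75) and ADAM10 (−0.59) and NOTCH1's difference of 24 against 2 h (−0.77), left 0 members lower there and in that difference, with 2 higher at 24 h, and gave 7 and 17 listed genes higher at 6 and 24 h and HES1 at least 256-fold lower at 6 h and 6.08-fold at 24 h.

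DESeq2 with T>C size factors gave ADAM10 −0.63 at 6 h and −0.83 at 24 h, RBPJ −0.35, MAML2 −0.45, NOTCH2 0.14 and MAML1 0.39 at 24 h, 1 member lower at each of 6 and 24 h, and in the list 2 higher at 6 h, with 9 lower and 7 higher by 24 h. With total size factors it gave ADAM10 −0.99 at 6 h, 1 listed gene higher at 6 h, and 1 lower in total reads at 2 h. It also called labelled NOTCH2 lower at 6 h (−1.67, adjusted p = 0.035). Each time fitted alone gave 1 listed gene higher at 6 h. Summed transcripts gave MAML2 −1.22 at 24 h, and 1 lower and 0 higher in total reads at 2 h. No filter and background subtraction each ended none of these calls.

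Replicate numbers did not pair the libraries (9 pairs, correlations −0.246 to 0.0632, 0 over 0.1). The replicate block gave ADAM10 −0.99 at 6 h with 1 member lower, and NOTCH1 −2.32 for 24 against 6 h with 0 members lower; it changed no other call of the members.

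Leaving out one library gave ranges of −1.25 to −0.85 (ADAM10, 6 h), −1.62 to −1.001 (MAML2, 24 h), −1.22 to −0.97 (RBPJ, 24 h), −0.0244 to 0.36 (RBPJ, 2 h) and −0.17 to 0.37 (NOTCH1, 6 h) in T>C reads, and 1 to 2 members lower at 6 h. In total reads they were 2.80 to 6.62 (JAG2, 24 h; 0 to 1 members higher), −0.27 to 0.0608 and −0.31 to 0.20 (NOTCH1, 2 and 6 h), −0.22 to 0.00972 (NOTCH2, 2 h), 0 to 1 listed genes lower and 0 to 1 higher at 2 h, and 1 to 3 higher at 6 h. The HES1 bounds ranged from 102 to 176 at 2 h and 157 to 253 at 6 h in T>C reads and from 206 to 335 at 6 h in total reads, and its total fold at 2 h from 38.4 to 119.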
